A study of Mus musculus with 27 samples.

Results

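Ucp1, Ucp3, Cidea, Prdm16, Dio2 and Elovl3 are genes that mark or carry out heat production in brown and beige adipocytes, and their RNA was measured in the epididymal adipose tissue (EAT), a white fat depot, of mice on 3 diets. They are 6 of 8 genes chosen by symbol, and they stand among 18193 genes with a probe set of their own in the array annotation used. Ucp2 and Adrb3 were not analysed here. Each gene was read from its brightest probe set, by the mean of 27 arrays, a choice that used no difference between diets.

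Total RNA of each mouse was read on 1 Affymetrix mouse expression array, with 9 mice per diet. The first group ate a Western diet containing 0.05% quercetin, a plant flavonol, the second ate the Western diet without it, and the third ate a purified control diet. The Western diet held 39.9% of its energy as fat, from butter and soy oil, 34.0% as sucrose, and 0.15% cholesterol, and it was shared by the quercetin and Western groups. All mice were male C57BL/6J, arrived 5 weeks old, had 1 week of standard diet and then ate their diet for 18 weeks. They were kept 3 per cage, and which mice shared a cage is not given. The p-values below therefore measure the spread between mice without regard to cages. The tissue label is EAT, although the text on extraction in the labels speaks of liver. Adipoq, which encodes the fat hormone adiponectin, had a log2 signal between 13.29 and 13.54 on all 27 arrays.

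Brown and beige adipocytes burn fuel to make heat. UCP1, the uncoupling protein of their mitochondria, lets protons return across the inner membrane without making ATP. Noradrenaline released by sympathetic nerves drives this through beta-adrenergic receptors, cAMP and protein kinase A, which free fatty acids from lipid droplets and raise transcription of Ucp1 and Dio2. White fat such as EAT holds few such cells in unstressed mice. CIDEA is a lipid droplet protein abundant in brown fat, PRDM16 is a transcriptional regulator that maintains the brown and beige cell fate, DIO2 converts thyroxine to the active thyroid hormone, and ELOVL3 lengthens saturated fatty acids and is abundant in brown fat, skin and liver. UCP3 is a relative of UCP1 found mainly in skeletal muscle and brown fat.

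The start regions of 3 of these genes are shown because cAMP acts on transcription through the CRE element and because Ucp3 was the member that passed the test below. RefSeq promoter windows of build GRCm38.p6, from 250 bases before to 50 after the start of the gene, matched 5 of the 8 listed genes and 4 of the 6 measured. Sequences run 5′ to 3′ on the strand of the gene, and capitals mark the CRE core (TGACG or its reverse complement CGTCA), the TATA box (TATAAA, read on both strands) and the E-box CAGCTG. The windows are those of Ucp1 (chr8:83290098-83290397, plus strand), Dio2 (chr12:90738989-90739288, minus strand) and Ucp3 (chr7:100472741-100473040, plus strand).
Ucp1: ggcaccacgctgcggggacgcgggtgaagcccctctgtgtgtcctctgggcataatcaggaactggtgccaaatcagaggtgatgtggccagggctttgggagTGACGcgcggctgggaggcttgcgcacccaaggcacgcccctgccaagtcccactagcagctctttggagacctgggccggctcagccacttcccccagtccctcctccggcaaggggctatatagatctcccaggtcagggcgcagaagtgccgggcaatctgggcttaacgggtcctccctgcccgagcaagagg
Dio2: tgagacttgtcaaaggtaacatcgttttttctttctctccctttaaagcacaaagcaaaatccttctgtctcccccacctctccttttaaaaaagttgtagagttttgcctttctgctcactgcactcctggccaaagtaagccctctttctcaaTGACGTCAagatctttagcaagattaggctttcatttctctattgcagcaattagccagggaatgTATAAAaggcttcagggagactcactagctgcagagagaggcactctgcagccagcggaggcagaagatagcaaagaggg
Ucp3: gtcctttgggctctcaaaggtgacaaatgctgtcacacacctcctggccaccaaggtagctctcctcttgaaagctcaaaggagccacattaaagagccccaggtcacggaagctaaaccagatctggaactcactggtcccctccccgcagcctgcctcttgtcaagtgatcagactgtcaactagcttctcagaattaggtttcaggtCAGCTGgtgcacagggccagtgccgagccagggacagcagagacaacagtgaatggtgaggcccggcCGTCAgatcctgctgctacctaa
The Dio2 window held the full palindromic CRE, TGACGTCA, at -95 to -88 from the start site and a TATA box at -30 to -25. The full CRE contains the core on both strands, and these overlap. The Ucp1 window held a CRE core at -147 to -143, and the Ucp3 window held one at 28 to 32, inside the transcript, and the E-box at -40 to -35. Among 32851 windows of this length, 20.8% held a CRE core, 1.79% the full CRE, 13.6% the TATA box and 16.3% the E-box. A match of letters is a description of the sequence and shows no binding.

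Signals below are log2 of the normalized array intensity, where 0 is the lowest value allowed (an intensity of 1), and they compare mice for a given gene but not genes with each other. Differences were tested with limma over all 18193 genes, with Benjamini-Hochberg adjustment. In EAT, fewer cells of a type and less RNA per cell cannot be told apart.

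Of the 6 genes, 1 passed the test between diets, Ucp3, which was higher with quercetin than on the control diet. Quercetin against the control diet called 1 of 6 genes, against 6.66% of all genes, and 2 of 6 had an unadjusted p under 0.05 in limma (Ucp3 and Elovl3). Quercetin against the Western diet called 0 of 6, against 0.33% of all genes, and 1 of 6 (Ucp3) had an unadjusted p under 0.05 in limma. The Western diet against the control diet called 0 of 6, against 17.7% of all genes, and 1 of 6 (Elovl3) had an unadjusted p under 0.05 in limma. The limma test of the 3 diets together called 1 of 6, Ucp3, with an adjusted p of 0.0448, against 16% of all genes. Over the 6 genes the median of the log2 fold changes was 0.12 for quercetin against control, 0.05 for quercetin against Western and 0.02 for Western against control, beside medians of 0.03, 0.02 and 0.00 over all genes. These comparisons share arrays, so their counts are not separate evidence.

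**Figure D1:**
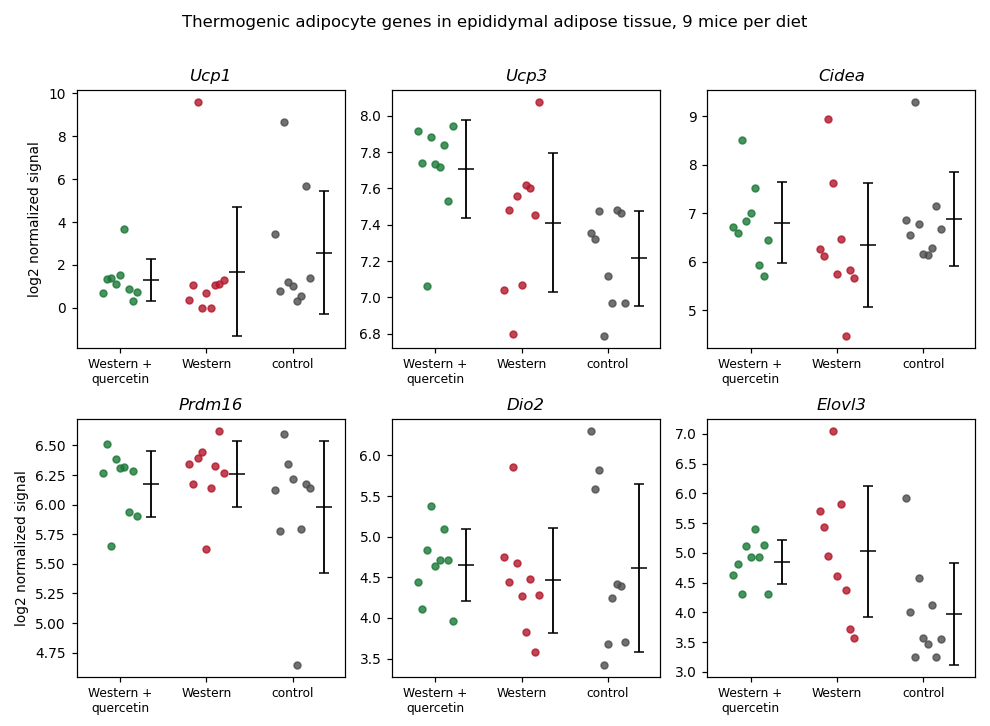
Log2 normalized signal (y axis) of the 6 genes in each mouse, by diet (x axis: Western diet with quercetin, Western diet, control diet), with the mean and SD of 9 mice as a black bar beside the points. Ucp1 lies under 2 in most mice with single high mice in the Western and control groups, and 8 of 9 quercetin mice lie above every control mouse for Ucp3.

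Ucp1, the defining gene of heat-producing fat, was near the bottom of the scale in most mice. With quercetin its lowest, median and highest log2 signals were 0.33, 1.13 and 3.67, on the Western diet 0, 1.06 and 9.59, and on the control diet 0.33, 1.21 and 8.67. It lay below the first quartile of its array in 8 of 9 quercetin mice, 8 of 9 Western mice and 6 of 9 control mice. Western mouse 3 had a deposited intensity of 859 and control mouse 3 one of 507, while the next highest were 39.7 in control mouse 8, 12.1 in quercetin mouse 6 and 10.5 in control mouse 1. All other mice were at 4.21 or less.

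The mean of Ucp1 was 1.30 ± 0.97 with quercetin, 1.69 ± 3.002 on the Western diet and 2.57 ± 2.86 on the control diet (SD, n = 9). The log2 fold change was -1.27 for quercetin against control (95% interval -3.50 to 0.97, limma adjusted p = 0.545), -0.39 for quercetin against Western (-2.62 to 1.84, adjusted p = 0.933) and -0.88 for Western against control (-3.11 to 1.36, adjusted p = 0.635). The groups overlapped, and single mice set the differences. Without control mouse 3, Western against control came to -0.11, and without Western mouse 3 to -1.86. Without Western mouse 3, quercetin against Western turned to 0.60.

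Ucp3 was the member with a difference past the threshold. Its lowest, median and highest log2 signals were 7.06, 7.74 and 7.94 with quercetin, 6.80, 7.48 and 8.08 on the Western diet and 6.79, 7.32 and 7.48 on the control diet. Quercetin mouse 3 was the low one at 7.06, and the other 8 lay above all control mice. Western mice spread across both other groups, with 5 of 9 above every control mouse. The means were 7.71 ± 0.27, 7.41 ± 0.38 and 7.22 ± 0.26 for the quercetin, Western and control diets (SD, n = 9).

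Quercetin against control gave a log2 fold change of 0.49 for Ucp3 (SE 0.14, 95% interval 0.20 to 0.79, limma adjusted p = 0.0371). Quercetin against Western was 0.30 (0.0033 to 0.59, limma adjusted p = 0.358), and Western against control was 0.20 (-0.10 to 0.49, limma adjusted p = 0.379). Neither of these passed. The call was near the threshold. Leaving out single mice gave 0.44 to 0.57, with limma adjusted p between 0.00973 and 0.0754, and the call held in 18 of 27 such fits. It was lost without control mouse 4 (0.44), 5 (0.48) or 9 (0.46) and without quercetin mouse 1 (0.47), 2 (0.49), 4 (0.47), 5 (0.49), 7 (0.48) or 9 (0.46).

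A further probe set for Ucp3 was dimmer, with means of 5.78, 5.84 and 5.36 for the quercetin, Western and control diets. Its log2 fold changes were 0.42 for quercetin against control (limma adjusted p = 0.143 over all probe sets) and 0.48 for Western against control (limma adjusted p = 0.0579). Quercetin against Western was -0.06 for it, against 0.30 for the brighter probe set, so the probe sets differed in whether the Western group lay beside the quercetin group. Without scaling between arrays the brighter probe set gave 0.47 (limma adjusted p = 0.106), and with a shift to a common median 0.45 (limma adjusted p = 0.107). Markers of skeletal muscle, which also expresses Ucp3, had a mean log2 signal of 15 genes between 3.60 and 4.53 with quercetin, 3.69 and 4.54 on the Western diet and 3.69 and 5.15 on the control diet. Among them the muscle actin Acta1 had means of 8.37 ± 0.60, 7.93 ± 0.46 and 8.85 ± 1.65 on the quercetin, Western and control diets (SD, n = 9), with its highest value, 11.75, in control mouse 4, and the muscle creatine kinase Ckm 4.83 ± 0.50, 4.57 ± 0.41 and 4.54 ± 0.36. Acta1 and Ckm were chosen after their values were seen. Over the 15 muscle markers, quercetin against control called 0 higher and 2 lower (13.3%, against 6.66% of all genes), with a median log2 fold change of -0.41. Western against control called 1 higher and 1 lower (13.3%, against 17.7% of all genes, median -0.06), and quercetin against Western called 0 (median -0.01). The part of muscle RNA in the Ucp3 signal was not tested. The genes nearest to Ucp3 in pattern over the 27 arrays, among genes above the median signal, were Atp2a3 (r = 0.80), a calcium pump, Rasl12 (0.80) and Slc6a13 (0.78), a GABA transporter.

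**Figure D2:**
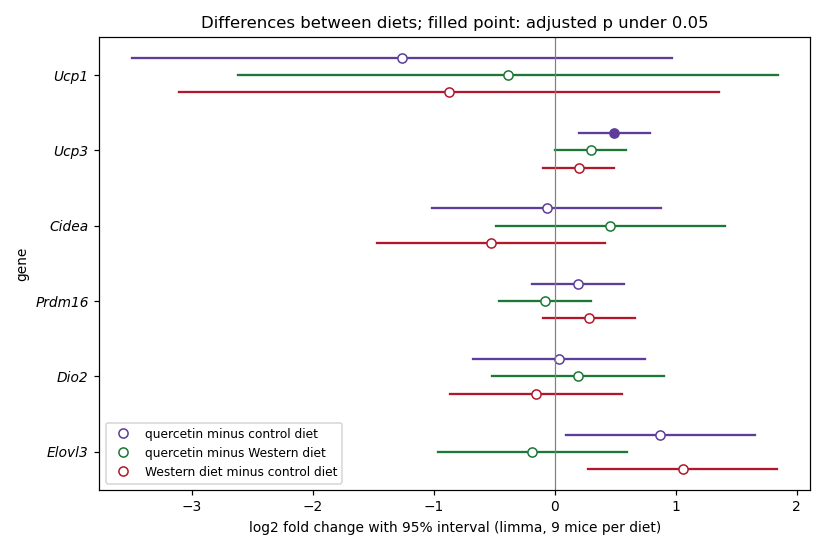
Log2 fold change (x axis) with its 95% interval from limma for each gene (y axis) in the 3 comparisons, in colour, 9 mice per diet. The only filled point, with an adjusted p under 0.05, is Ucp3 for quercetin against control at 0.49, and the widest intervals are those of Ucp1.

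Cidea was measurable in every mouse and differed by mouse more than by diet. The lowest, median and highest log2 signals were 5.69, 6.71 and 8.50 with quercetin, 4.46, 6.12 and 8.94 on the Western diet and 6.13, 6.66 and 9.29 on the control diet. The highest mouse was number 3 in each diet, with deposited intensities of 364, 548 and 783 in the quercetin, Western and control groups. The labels do not say whether the replicate numbers pair mice across diets. The means were 6.81 ± 0.84, 6.35 ± 1.28 and 6.87 ± 0.97 (SD, n = 9).

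The log2 fold change of Cidea was -0.07 for quercetin against control (95% interval -1.01 to 0.87, limma adjusted p = 0.957), 0.46 for quercetin against Western (-0.48 to 1.40, adjusted p = 0.745) and -0.53 for Western against control (-1.47 to 0.42, adjusted p = 0.472). The median mouse on the Western diet was the lowest of the 3 medians, and 5 of 9 Western mice lay below every control mouse. With the Ucp1-high mice, control 3 and Western 3, left out, quercetin against Western was 0.78 (limma unadjusted p = 0.0284, adjusted p = 0.324), and quercetin against control turned to 0.23.

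Cidea was also the gene whose pattern was most like that of Ucp1 over the 27 arrays, among genes above the median signal (Pearson r = 0.71), followed by Zdhhc7 (0.63) and Nfkbiz (0.62). With diet means subtracted, r between Ucp1 and Cidea was 0.73 and Spearman rho 0.50 over 27 mice. Without control mouse 3 and Western mouse 3, r was 0.26 and rho 0.32 over 25 mice, so the high r rests on those mice. Ucp1 and Dio2 had an r of 0.55, which came to 0.20 without them, and Cidea and Dio2 had 0.46 and 0.12. Over the 15 pairs of members, r ran from -0.29 (Ucp3 and Cidea) to 0.73. The genes nearest to Cidea were Zfp946 (0.60), Filip1l (0.59) and Piga (0.56). These are descriptions of arrays that share normalization and processing, and no test was made.

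**Figure D3:**
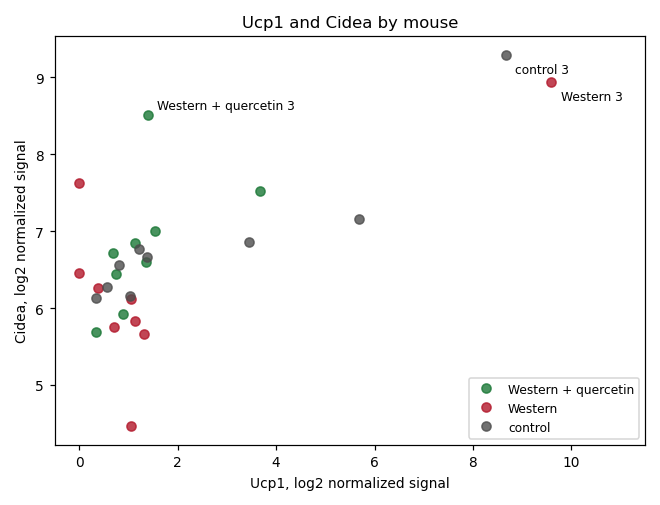
Log2 normalized signal of Ucp1 (x axis) and Cidea (y axis) in 27 mice, coloured by diet, with mouse 3 of each diet named. Control 3 and Western 3 are high for both genes, while quercetin 3 has a Cidea signal of 8.50 and a Ucp1 signal of 1.39.

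The mice with high Ucp1 were set against a wider list of 53 measured genes of brown and beige identity and of heat production. Control mouse 3 was the highest of its diet for 16 of the 53 genes (30.2%), against 13.4% of all genes. Western mouse 3 was the highest for 8 (15.1%, against 9.25% of all genes), fewer than Western mouse 2 with 11 (20.8%, against 14%), and quercetin mouse 3 for 14 (26.4%, against 18.1%). Single markers differed in this. Cox7a1, a subunit of cytochrome c oxidase, and S100b, a calcium-binding protein, were highest in mouse 3 of both the Western and the control diet. Kcnk3, a potassium channel of brown fat, was highest in Western mouse 7 and control mouse 8, Zic1, a classical brown fat marker, in Western mouse 2 and control mouse 7, and Ppargc1a, the coactivator of mitochondrial genes, in Western mouse 3 and control mouse 9. These 5 genes were chosen after their values were seen. Of the list genes named below for their largest changes, Cox8b and Pdk4 were highest in mouse 3 of both the Western and the control diet. Slc36a2, Otop1 and Plin5 were highest in control mouse 3, but in Western mice 2, 1 and 9. Lhx8, Cited1, Mpzl2 and Fgf21 were highest in other mice of both diets. Zic1 was near the floor, with highest log2 signals of 2.74 on the Western diet and 2.72 on the control diet. At the floor itself were 3 Western and 2 control mice, so which mouse was highest for Zic1 says little. Control mouse 3 also had the highest B cell marker signal of the 27 mice (7.09, against at most 5.72 with quercetin and 5.21 on the Western diet), the highest T cell signal (5.78, against at most 5.33 with quercetin and 5.17 on the Western diet) and the highest macrophage signal of its diet (9.48), and the part of such RNA in its other values was not tested.

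Prdm16 was close to even across diets. Its lowest, median and highest log2 signals were 5.65, 6.29 and 6.51 with quercetin, 5.62, 6.33 and 6.62 on the Western diet and 4.65, 6.14 and 6.60 on the control diet. The groups overlapped, and control mouse 6, at 4.65, was the low one. The log2 fold change was 0.19 for quercetin against control (95% interval -0.19 to 0.57, limma adjusted p = 0.596), -0.08 for quercetin against Western (-0.47 to 0.30, adjusted p = 0.911) and 0.28 for Western against control (-0.10 to 0.66, adjusted p = 0.327).

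Of the 4 probe sets for Prdm16, the brightest is the one given above. Another, with means of 5.56, 5.64 and 5.16 for the quercetin, Western and control diets, gave 0.49 for Western against control (limma adjusted p = 0.0472 over all probe sets). The genes closest to Prdm16 over the arrays were Mier1 (r = 0.79), Bicra (0.78) and Slc39a14 (0.77).

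Dio2 was low and spread widely on the control diet. The lowest, median and highest log2 signals were 3.96, 4.71 and 5.37 with quercetin, 3.58, 4.45 and 5.85 on the Western diet and 3.42, 4.39 and 6.30 on the control diet. Control mice 1, 2 and 3 lay between 5.58 and 6.30, and the other 6 at 4.42 or less. The means were 4.65 ± 0.45, 4.46 ± 0.64 and 4.62 ± 1.04 (SD, n = 9).

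The log2 fold change of Dio2 was 0.04 for quercetin against control (95% interval -0.67 to 0.75, limma adjusted p = 0.97), 0.19 for quercetin against Western (-0.52 to 0.90, adjusted p = 0.886) and -0.15 for Western against control (-0.86 to 0.56, adjusted p = 0.81). Its 3 probe sets did not share a sign in any of the 3 comparisons. For Western against control a dimmer one gave 0.33 and the dimmest 0.14. The genes nearest in pattern were Fam241a (r = 0.77), Rhbdl3 (0.72) and Ppp1r3d (0.70).

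Elovl3 had its higher values on both Western diets, and its difference from control did not pass the adjusted threshold. The lowest, median and highest log2 signals were 4.30, 4.92 and 5.40 with quercetin, 3.58, 4.95 and 7.05 on the Western diet and 3.24, 3.57 and 5.92 on the control diet. All 9 quercetin mice lay above the control mean, within a narrow band (SD 0.37), while Western mice spread with an SD of 1.10 and control mice with 0.85. The means were 4.84, 5.02 and 3.97 for the quercetin, Western and control diets (n = 9).

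Western against control was 1.06 for Elovl3 (SE 0.38, 95% interval 0.28 to 1.84, limma adjusted p = 0.0534), quercetin against control 0.87 (0.09 to 1.65, limma adjusted p = 0.17) and quercetin against Western -0.19 (-0.97 to 0.60, adjusted p = 0.903). Leaving out single mice gave 0.80 to 1.30 for Western against control. It passed in 4 of these 27 fits, without control mouse 1 (1.30, limma adjusted p = 0.00933) or 4 (1.13, 0.0491) and without Western mouse 8 (1.22, 0.0277) or 9 (1.24, 0.0214). Without control mouse 1, quercetin against control came to 1.12 and passed as well (limma adjusted p = 0.0465).

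Liver genes differed between arrays, and on the Western and control diets the mouse with the most liver signal had the most Elovl3. The mean log2 signal of 10 liver genes ran from 3.85 to 8.77 with quercetin, 3.65 to 10.80 on the Western diet and 3.90 to 8.14 on the control diet. Alb, which encodes albumin, ran from 5.74 to 13.13 over the 27 arrays. Western mouse 4 had the highest liver mean, 10.80, and the highest Elovl3 signal, 7.05. Western mouse 6 had 9.76 and 5.82, Western mouse 1 had 7.95 and 5.70, and control mouse 1 had 8.14 and 5.92.

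Within diets, Elovl3 and the liver mean had a Pearson r of 0.75 on the Western diet (exact permutation p = 0.0188, adjusted p = 0.338 over 54 relations, Spearman rho 0.60, p = 0.0968) and 0.90 on the control diet (exact permutation p = 0.00432, adjusted p = 0.127, rho 0.77, p = 0.0214), in 9 mice each and two-sided. Once the 2 mice with the most extreme liver signal were dropped, r was 0.39 on the Western diet and 0.22 on the control diet, so it rests on those mice. On quercetin r was 0.13 (exact permutation p = 0.737, adjusted p = 0.946, rho 0.08, p = 0.843), and -0.25 without 2 mice. None of the 54 relations passed adjustment. With the 10 arrays above a liver mean of 6 left out, 5 quercetin, 5 Western and 7 control mice remained, and Elovl3 gave 1.21 for quercetin against control (limma unadjusted p = 0.00247, adjusted p = 0.107) and 0.81 for Western against control (unadjusted p = 0.03, adjusted p = 0.173). Quercetin against Western turned to 0.40. The genes nearest to Elovl3 in pattern were Apoc2 (r = 0.83), an apolipoprotein made in liver, Pemt (0.76), a liver enzyme of phosphatidylcholine synthesis, and Pole3 (0.76).

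**Figure D4:**
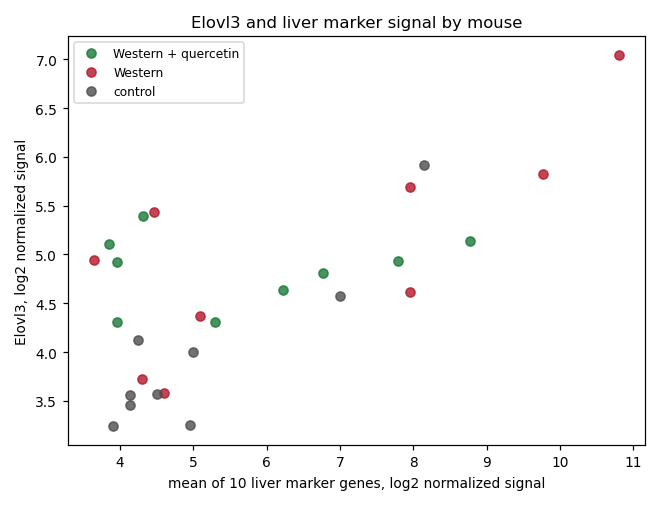
Mean log2 signal of 10 liver marker genes (x axis) and log2 signal of Elovl3 (y axis) in 27 mice, coloured by diet. The highest Elovl3 value, 7.05 in Western mouse 4, stands at the highest liver mean, 10.80, and at liver means under 6 the 5 quercetin mice lie between 4.30 and 5.40, above the 7 control mice at 3.24 to 4.12.

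The members were also set against markers of macrophages and adipocytes. Of 18 macrophage markers, 7 were higher with quercetin than in control mice (38.9%, against 6.66% of all genes called). In Western mice 17 were higher than in control mice (94.4%, against 17.7%). Between quercetin and Western 0 passed by limma, against 0.33% of all genes, and the median log2 fold change of the 18 was -0.75. Cd68, a lysosomal protein of macrophages, chosen after its values were seen, had means of 9.77 ± 1.004 with quercetin, 10.92 ± 0.74 on the Western diet and 8.41 ± 0.59 on the control diet, and was -1.15 for quercetin against Western (limma unadjusted p = 0.00272, adjusted p = 0.122). The mean log2 signal of the 18 ran from 8.33 to 10.26 with quercetin, 9.33 to 10.71 on the Western diet and 8.00 to 9.48 on the control diet. Within the quercetin group, Cidea ran against the macrophage signal (r = -0.83, exact permutation p = 0.00469, adjusted p = 0.127, rho -0.72, p = 0.0369, 9 mice), and r was -0.57 once 2 extreme mice were dropped. On the control diet, Dio2 and the macrophage signal had an r of 0.71 (exact permutation p = 0.0309, adjusted p = 0.417, rho 0.62, p = 0.0857), and 0.59 without 2 mice. The 18 relations to the adipocyte signal ran from -0.42 to 0.62, and 0 had an exact permutation p under 0.05. The ratio of 3′ to 5′ probe sets for actin, a measure of RNA integrity, was 1.14 ± 0.19, 0.785 ± 0.12 and 1.11 ± 0.29 on the log2 scale for the quercetin, Western and control diets (SD, n = 9). It was lowest on the Western diet, and its part in the values was not tested.

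Among the wider programme of brown and beige identity, 26 genes were measured. Most calls were rises against control, as they were over all genes (910 of 1211 calls for quercetin and 2047 of 3219 for Western). Quercetin against control called 4 higher and 0 lower (15.4%, against 6.66% of all genes). Western against control called 5 higher and 1 lower (23.1%, against 17.7%), and between quercetin and Western 0 differed by limma (against 0.33%). The median log2 fold changes of the list were 0.18, 0.00 and 0.01 for quercetin against control, Western against control and quercetin against Western. Slc36a2, an amino acid transporter used as a brown fat surface marker, had means of 11.08 ± 0.19, 10.85 ± 0.22 and 10.24 ± 0.25 on the quercetin, Western and control diets (SD, n = 9). Quercetin against control was 0.84 (limma adjusted p = 8.9e-06), Western against control 0.61 (limma adjusted p = 0.00011), and no quercetin or Western mouse lay below the highest control mouse, at 10.46. Pdk4, a kinase that turns fuel use from glucose to fat, rose by 1.29 on quercetin (limma adjusted p = 0.000217) and 1.34 on the Western diet (limma adjusted p = 3.53e-05) against control.

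The identity list did not move as a block. Lhx8, a homeobox factor used as a brown fat marker, had lowest, median and highest log2 signals of 0, 3.81 and 5.12 with quercetin, 3.86, 5.61 and 6.06 on the Western diet and 0, 0 and 3.08 on the control diet, where 5 of 9 mice were at the floor. All Western mice lay above all control mice, and the fitted difference of 4.18 (limma adjusted p = 6.38e-05) depends on the floor. Quercetin against control was 2.33 (limma adjusted p = 0.0299), held in 17 of 27 fits without single mice and in 9 of 14 other alternatives. It was lost with a floor of 32 and with a pseudocount of 16, and was as low as 0.0135 over the alternatives. Cited1, used as a beige marker, was lower in Western than in control mice (-3.33, limma adjusted p = 0.0483), but its highest control signal was 11.31 beside a control median of 1.41, and the call held in 6 of 27 fits without single mice. It held in 3 of 14 other alternatives. Among the losses were those without scaling, with a floor of 32, with a pseudocount of 16 and without the arrays with high liver markers. Cited1 also did not pass without the arrays with high testis, B cell or smooth muscle markers. Control mouse 4, which held the highest Cited1 value, had the highest smooth muscle marker signal of the 27 mice (11.44), and the part of such RNA was not tested. P2rx5, a purinergic receptor of brown fat, was higher on quercetin (0.78, limma adjusted p = 0.01) and on the Western diet (0.58, limma adjusted p = 0.025) than on control, and Epsti1, listed as a brown fat marker, was higher on the Western diet (0.73, limma adjusted p = 0.0057). P2rx5 and Epsti1 were named after their values were seen, to complete the counts.

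Of the genes of heat production and fat burning, 27 were measured. For this list, quercetin against control called 8 higher and 1 lower (33.3%, against 6.66% of all genes). Western against control called 6 higher and 2 lower (29.6%, against 17.7%), and quercetin against Western 0 by limma (against 0.33%). The list medians for these comparisons were 0.17, 0.18 and 0.12 in that order. Cox8b, a cytochrome c oxidase subunit of muscle and brown fat, had means of 9.66 ± 0.38 with quercetin, 9.12 ± 0.46 on the Western diet and 8.41 ± 0.86 on the control diet (SD, n = 9). Quercetin against control was 1.26 (limma adjusted p = 0.00543), while Western against control was 0.72 (limma adjusted p = 0.0599) and quercetin against Western 0.54 (limma adjusted p = 0.37). Plin5, which joins lipid droplets to mitochondria, rose by 0.92 on quercetin (limma adjusted p = 0.00127) and 0.66 on the Western diet (limma adjusted p = 0.00498). Acadl, a dehydrogenase of beta-oxidation, rose by 0.38 on quercetin and 0.32 on the Western diet, and Hadha and Hadhb, the subunits of the mitochondrial trifunctional protein, rose by 0.26 and 0.38 on quercetin. Acsl5, an acyl-CoA synthetase, and Clstn3 were also higher on both Western diets, and Sirt3, a mitochondrial deacetylase, was lower on the Western diet (-0.38, limma adjusted p = 0.032). Acadl, Hadha, Hadhb, Acsl5, Clstn3 and Sirt3 were named after their values were seen.

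Otop1, a proton channel of brown fat, was highest on the Western diet. Its lowest, median and highest signals were 4.58, 6.43 and 7.26 with quercetin, 6.10, 7.35 and 7.61 on the Western diet and 3.15, 3.58 and 7.04 on the control diet. Western against control was 2.89 (limma adjusted p = 5.51e-05), quercetin against control 1.68 (limma adjusted p = 0.0215), and quercetin against Western -1.21 (limma unadjusted p = 0.0104, adjusted p = 0.19). Control mouse 3, the Ucp1-high mouse, had the highest control value of Otop1. Mpzl2, an adhesion protein, was lower on quercetin (-3.001, limma adjusted p = 0.0459) and on the Western diet (-2.74, limma adjusted p = 0.0372) than on control, with 1 mouse at the floor in both Western groups. Without single arrays those calls held in 9 and 16 of 27 fits, and they held in 3 and 10 of 14 other alternatives. Both were lost without the arrays with high liver markers and without those with high testis, B cell or smooth muscle markers. They were also lost without the mice with high Ucp1. Fgf21, a hormone of liver and fat, was higher on the Western diet than on control (1.15, limma adjusted p = 0.0411). The call held in 17 of 27 fits without single arrays and in 7 of 14 other alternatives. It was lost without the arrays with high liver markers and without those with high testis, B cell or smooth muscle markers. Other losses were without scaling, with a floor of 32, in the 2-diet fit, with the replicate block and with the adjusted methods' test. Its highest Western signals were in mice 6 (5.99) and 4 (5.81), which had the highest liver means, and the part of liver RNA was not tested. Ppargc1a, the coactivator of mitochondrial genes that cAMP induces, did not pass and was chosen after its values were seen. The means of Ppargc1a were 5.88 ± 0.62 with quercetin, 5.71 ± 0.28 on the Western diet and 6.31 ± 0.71 on the control diet (SD, n = 9).

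**Figure D5:**
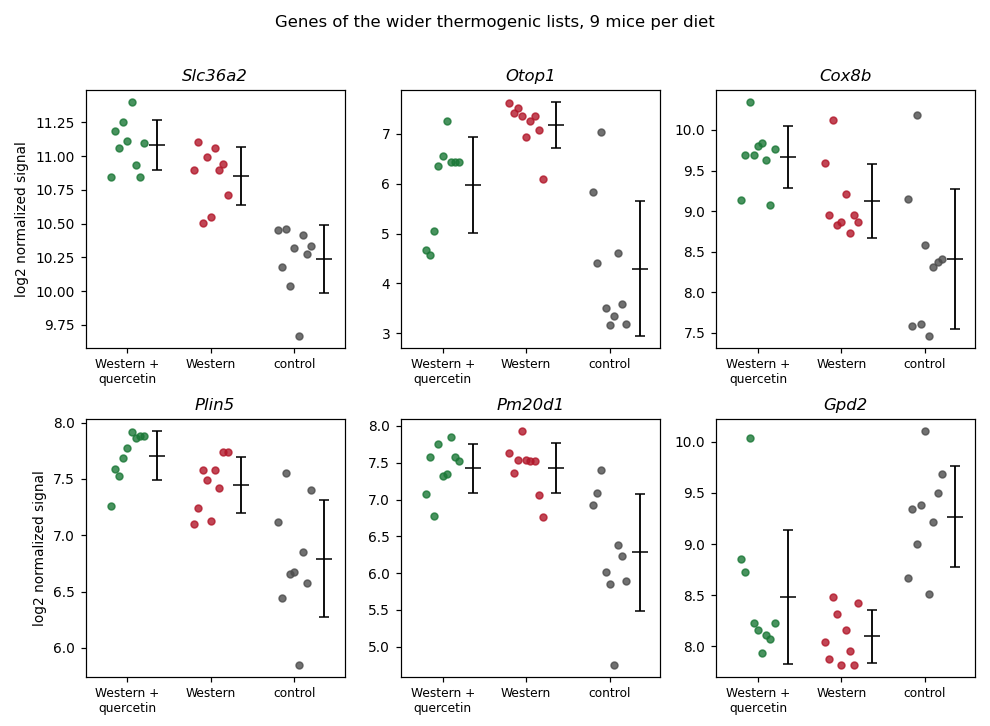
Log2 normalized signal (y axis) of 6 genes of the wider lists in each mouse, by diet (x axis: Western diet with quercetin, Western diet, control diet), with the mean and SD of 9 mice as a black bar beside the points. Slc36a2 shows no overlap between either Western group and the control group, while the quercetin means of Otop1 and Gpd2 lie between the Western and control means.

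Heat can also come from cycles that do not use UCP1, and 14 such genes were measured. Quercetin against control called 1 higher and 1 lower (14.3%, against 6.66% of all genes). Western against control called 3 higher and 1 lower (28.6%, against 17.7%), and quercetin against Western 0 (against 0.33%). Pm20d1, an enzyme that makes uncoupling N-acyl amino acids, had means of 7.42 ± 0.33, 7.43 ± 0.34 and 6.28 ± 0.80 on the quercetin, Western and control diets (SD, n = 9), and its rises of 1.14 and 1.15 over control passed for both Western diets (limma adjusted p = 0.00505 for quercetin and 0.00116 for Western). Gpd2, the mitochondrial glycerol phosphate dehydrogenase, fell by 0.79 on quercetin (limma adjusted p = 0.0313) and by 1.17 on the Western diet (limma adjusted p = 0.000431). The call on quercetin held in 17 of 27 fits without single mice and in 11 of 15 other alternatives. Quercetin mouse 3 had the highest Gpd2 of its group, 10.04, beside a group median of 8.22. Ryr1, the calcium channel of muscle, was higher on the Western diet than on control (1.60, limma adjusted p = 0.00518), a call lost with the mean of all probe sets and without the arrays with high liver markers, and its value was as low as 0.51 over the alternatives. Gamt, an enzyme of creatine synthesis, was higher by 0.42 (limma adjusted p = 0.0172), which did not pass without scaling, without the arrays with high liver markers or with the methods' test after adjustment.

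In the adrenergic and cAMP pathway upstream of Ucp1 and Dio2, 30 of 37 listed genes were measured. Quercetin against Western called 2 of the 30, both higher, which is 6.67% against 0.33% of all genes. Without control mouse 3 and Western mouse 3 it called 0 of the 30 by limma, against 0.0495% of all genes. Without the arrays with high liver markers it called 0 of the 30, and 0 of all genes. Without those with high testis, B cell or smooth muscle markers it again called 2, both higher (6.67%, against 0.824% of all genes). Prkaca, the catalytic subunit alpha of protein kinase A, had means of 11.39 ± 0.14 with quercetin, 11.03 ± 0.13 on the Western diet and 11.11 ± 0.17 on the control diet (SD, n = 9). It rose by 0.36 on quercetin over Western (limma adjusted p = 0.031) and by 0.28 over control (limma adjusted p = 0.0184). The groups overlapped, with 6 of 9 quercetin mice above the highest Western mouse, at 11.25. The call over Western held in 17 of 27 fits without single mice, and it was lost without Western mouse 1, 3, 5, 7 or 8 or quercetin mouse 1, 2, 3, 4 or 5, and without scaling between arrays. Gnai1, an inhibitory G protein subunit named after its values were seen, rose by 0.35 on quercetin over Western (limma adjusted p = 0.0464) and fell by 0.28 on the Western diet against control (limma adjusted p = 0.0129). Prkacb, the beta subunit of the kinase, fell by 0.44 on quercetin against control (limma adjusted p = 0.0386), a call that held in 15 of 27 fits without single mice.

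The Western diet called 4 adrenergic pathway genes higher and 4 lower than control (26.7%, against 17.7% of all genes). These counts were 1 and 1 without the arrays with high liver markers (6.67%, against 8.13% of all genes). They were 2 and 8 without those with high testis, B cell or smooth muscle markers (33.3%, against 21% of all genes). Arrb2, an arrestin that silences receptors, rose by 0.65 (limma adjusted p = 0.00208), and Adcy3, an adenylyl cyclase, rose by 0.50 (limma adjusted p = 0.0205). The call for Adcy3 held in 9 of 15 alternatives other than single mice left out, and was lost in each of the 3 larger sets of arrays left out, in the fit of 2 diets and with the methods' test. Its value was as low as 0.19. Prkar2b, a regulatory subunit of protein kinase A, and Mapk14, the p38 kinase, were the other genes that rose. Pde3b, a phosphodiesterase, and the transcription factors Creb1 and Atf2 fell together with Gnai1. Quercetin against control called Prkaca higher, and Prkacb and Creb1 lower (10% of the list, against 6.66% of all genes). Prkar2b, Mapk14, Pde3b, Creb1 and Atf2 were named after their values were seen.

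Of the thyroid hormone genes around Dio2, 15 were measured. Quercetin called none against control and none against Western (0 of 15 by limma in both, against 6.66% and 0.33% of all genes). The Western diet called 1 higher and 2 lower than control (20%, against 17.7% of all genes). Slc16a10, a thyroid hormone and amino acid transporter, rose by 0.92 (limma adjusted p = 0.000535). Thra, the thyroid hormone receptor alpha, fell by 0.34 (limma adjusted p = 0.0464, held in 10 of 27 fits without single mice), and Thrsp, a lipogenic gene that thyroid hormone induces, fell by 0.45 (limma adjusted p = 0.000493). Thrsp had means of 12.79 ± 0.25 with quercetin, 12.50 ± 0.16 on the Western diet and 12.95 ± 0.12 on the control diet (SD, n = 9), and no Western mouse lay above the lowest control mouse, at 12.81. The call for Thrsp was lost with a median shift.

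Families of the other members were read in the same way. Of 10 lipid droplet genes related to Cidea by family or place, Plin5 and Plin2 rose on both Western diets, Plin2 by 0.58 on quercetin (limma adjusted p = 0.000225) and by 0.75 on the Western diet (limma adjusted p = 4.96e-06). Plin2 coats lipid droplets in many cells, foamy macrophages among them. Of 6 other ELOVL elongases, limma called 0 in each comparison. Of 14 mitochondrial carriers related to the UCPs, Slc25a20, the carnitine-acylcarnitine carrier, rose by 0.39 on quercetin against control (limma adjusted p = 0.000289), and Slc25a1, the citrate carrier, by 0.45 (limma adjusted p = 0.0396, held in 18 of 27 fits without single mice). Slc25a30, also called KMCP1, fell by 0.49 on quercetin against Western (limma adjusted p = 0.0238) and by 0.42 against control (limma adjusted p = 0.00484). The call against Western held in 22 of 27 fits without single mice, and was lost without Western mouse 7 or quercetin mouse 1, 2, 3 or 4. Slc25a35 fell by 0.43 on the Western diet against control (limma adjusted p = 0.0354, held in 16 of 27 such fits). Of 9 other PR domain genes, Prdm8 alone was called, higher by 0.70 on the Western diet than on control (limma adjusted p = 0.00872).

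These list counts stand beside 6.66%, 0.33% and 17.7% of all genes called for quercetin against control, quercetin against Western and Western against control, and they were not tested as sets. By direction, 5% of all genes were higher and 1.65% lower for quercetin against control, 0.253% higher and 0.077% lower for quercetin against Western, and 11.3% higher and 6.44% lower for Western against control. Without the 10 arrays with high liver markers, quercetin against control called 2 of 26 identity genes, 2 of 27 heat production genes and 0.868% of all genes, quercetin against Western called 0 genes of all, and Western against control called 4 of 26, 4 of 27 and 8.13% of all genes. The rises of Slc36a2, Pdk4, Plin5 and Plin2 over control passed in every alternative run, on quercetin and on the Western diet. Those of Cox8b, Otop1 and Pm20d1 on quercetin, and that of Pm20d1 on the Western diet, did not pass without the arrays with high liver markers. Otop1 on quercetin was also lost without scaling, with a floor of 32 and in the fit of 2 diets, and was as low as 0.74 over the alternatives.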

How the data were processed

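The authors made the deposited values, linear probe set signal intensities, from 27 Affymetrix arrays with Microarray Suite and GeneSpring. The median of these values per array ran from 25.1 to 54.3, and how the authors scaled them between arrays was not examined. The genome build is not given in the sources used here. Of 45101 probe sets, 64 controls were left out before normalization. Left out after it were 932 annotated to several genes and those with no gene in the annotation. The 34945 annotated to a single gene were kept. Intensities were quantile-normalized, floored at 1 and put on the log2 scale, and each gene was read from its probe set with the highest mean. limma 3.58.1 (R 4.3.3) fitted 1 mean per diet over all arrays with a variance trend, and p-values were adjusted over 18193 genes by Benjamini-Hochberg at 0.05. The fit was tested on simulated data. Relations across mice used exact two-sided permutation. Figures and permutations used Python 3.11.15, SciPy 1.17.1 and matplotlib 3.10.9.

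The genes and lists were chosen with earlier results of these data known. All 8 listed genes are named where measured, with up to 4 genes of each list past the threshold with the largest changes and the 3 genes nearest to each member. Gene names come from the platform annotation. Alternatives were other scalings, floors, pseudocounts, filters, probe set rules, limma settings, fits of 2 diets, a replicate block, the methods' test and each array left out. The number of arrays limits the precision.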

Additional observations from a re-analysis of the deposited data

Results flagged for a closer look

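Single mice stood far from the other 8 of their diet for 12 of 105 gene and diet groups examined, by the gap to the nearest mouse over the range of the group. Chance marks about 1 in 20 groups, and several of these groups share a mouse. No difference between diets and no signal outside the main measurement was picked out.

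Among the members, high mice were quercetin mouse 6 for Ucp1 (log2 signal 3.67, next 1.54), Western mouse 3 for Ucp1 (9.59, next 1.31), control mouse 3 for Cidea (9.29, next 7.15) and control mouse 1 for Elovl3 (5.92, next 4.57). Low mice were quercetin mouse 3 for Ucp3 (7.06, next 7.53), Western mouse 5 for Prdm16 (5.62, next 6.14) and control mouse 6 for Prdm16 (4.65, next 5.78). Control mouse 6 also had the highest testis germ cell marker signal, 12.36, and control mouse 1 the highest liver marker signal of its diet, 8.14. The part of either in these values was not tested.

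Among the genes of the wider lists, high mice were quercetin mouse 5 for Cited1 (4.24, next 1.42) and quercetin mouse 3 for Gpd2 (10.04, next 8.86). Low mice were Western mouse 9 for Otop1 (6.10, next 6.93), control mouse 4 for Fgf21 (1.36, next 3.48) and control mouse 6 for Thra (7.75, next 8.28).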

How the results depend on the processing

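Quercetin against Western called 0 of 6 members in every alternative. Quercetin against control called 0, losing Ucp3, without scaling (0.47, limma adjusted p = 0.106), with a median shift (0.45, 0.107), with the mean of all probe sets (0.45, 0.0509), without the arrays with high liver markers (0.43, 0.308) and without those with high testis, B cell or smooth muscle markers (0.43, 0.138). These leave-out sets, and that of the mice with high Ucp1, were chosen after seeing the data, and they leave fewer arrays. In the same 5 alternatives, with a floor of 32 and without the variance trend, the 3 diets together called 0. Western against control called 1, Elovl3, with a median shift (1.10, limma adjusted p = 0.0491) and with the methods' test before adjustment, which called 2 members over the 3 diets. Leaving out single arrays gave 0 to 1 calls for Western against control, 0 to 2 for quercetin against control and 0 to 2 for the 3 diets together.

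With the replicate block, quercetin against control called 0 (Ucp3 0.49, limma adjusted p = 0.0512), the 3 diets together 0, and Western against control 1 (Elovl3 1.06, limma adjusted p = 0.0309). The labels do not say whether the numbers pair mice across diets. Over 27 same-numbered pairs, r of their deviations ran from -0.325 to 0.183, and 2 of 27 arrays correlated best with their own number. Such r cannot show whether same-numbered arrays shared a step of handling.

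Signs turned for differences that had not passed. With a floor of 32, Ucp1 was 0.0265 for Western against control, Dio2 -0.0426 for quercetin against Western and -0.25 against control, and Elovl3 -0.0309 for quercetin against control. Dio2 for quercetin against control was -0.0387 with a pseudocount of 16 and -0.0624 with array weights, and with all probe sets Dio2 was 0.10 for Western against control and -0.0215 for quercetin against Western. Without the liver-high arrays, Ucp1 was 0.19 for Western against control, Elovl3 0.40 for quercetin against Western and Cidea 0.16 for quercetin against control, and without the testis, B cell or smooth muscle arrays Cidea was again 0.16. Without control mouse 3 and Western mouse 3, Ucp1 was 0.60 for quercetin against Western and Cidea 0.23 for quercetin against control. With single arrays left out, Dio2 ran from -0.33 to 0.0554 for Western against control and from -0.11 to 0.25 for quercetin against control, Cidea from -0.28 to 0.23 for quercetin against control, and for quercetin against Western Ucp1 from -0.69 to 0.60 and Elovl3 from -0.37 to 0.0673. The causes were not tested. Over all genes, quercetin against Western called 60, and 200 when genes below the median signal were left out, which removes 4 of the 6 members.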
